A study of Mus musculus with 48 samples.

Results

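Transcripts of 45 enzymes of glycolysis, pyruvate metabolism and the tricarboxylic acid (TCA) cycle were measured in mouse cells without the nucleosome-binding proteins HMGN1 and HMGN2 (double knockout, DKO) and in wild-type (WT) cells while both were turned into adipocytes. The enzymes were chosen by gene symbol from a hand-written list of the pathway, and all 45 symbols were found among the 55450 gene identifiers of the count tables. All cells were of the C57BL/6 strain. Preadipocytes (PRE) came from inguinal white adipose tissue of mice aged 8 to 12 weeks and were collected on days 0, 3, 6 and 9, and mouse embryonic fibroblasts (MEFs) were collected on days 0, 4, 8 and 12. WT and DKO cells were given the same media. Preadipocytes received 4 days of a differentiation medium with insulin, dexamethasone, IBMX, T3 and rosiglitazone and then 4 days of a maintenance medium with insulin and T3, whereas MEFs stayed in the differentiation medium for 8 days before 4 days of maintenance. Each of the 16 groups holds 3 libraries, 48 in all. The study calls the libraries of a group biological replicates. Whether they came from separate animals or from separate cultures of the same cells is not given, so the p-values measure only the spread between these libraries.

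Glycolysis splits glucose into pyruvate in the cytosol, lactate dehydrogenase interconverts pyruvate and lactate, and the pyruvate dehydrogenase complex turns pyruvate into acetyl-CoA for the TCA cycle in the mitochondria. In white fat cells the same routes feed fat storage, because glycerol phosphate made from a glycolytic intermediate is the backbone of triglycerides and citrate leaving the mitochondria is the source of carbon for fatty acids. In brown and beige fat cells the TCA cycle supplies the respiratory chain whose energy is released as heat. The 45 enzymes are described in 5 groups by role. These are sugar to triose (10), triose to lactate (7), glycerol phosphate and anaplerosis (4), pyruvate dehydrogenase and its kinases (7) and TCA cycle (17). The TCA cycle group also counts Mdh1, the malate dehydrogenase of the cytosol.

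Summed counts ran from 19809397 to 36006696 in the 24 preadipocyte libraries and from 18962483 to 33083213 in the 24 MEF libraries. As a check of the labels, Hmgn2 stood at 0 to 10 counts in every DKO preadipocyte library and at 0 to 3 counts in every DKO MEF library, against 32.4 to 134.8 and 46.0 to 198.4 CPM (counts scaled to a common library size) in the WT libraries. Hmgn1 transcripts remained measurable in DKO cells, at 73.7 to 97.7 CPM in preadipocytes and 69.7 to 114.2 CPM in MEFs, against 77.0 to 170.7 and 115.7 to 217.7 CPM in WT cells, so that this transcript does not check the labels. All 24 preadipocyte libraries expressed Y-linked genes and all 24 MEF libraries expressed Xist without them, so sex differs between the cell types and not between the genotypes, and levels of preadipocytes and MEFs were not compared by a test. Libraries of 1 group differed from each other by 2.16 to 168 times sampling noise (chi-square per degree of freedom over genes). The 3 WT MEF libraries of day 12 differed from each other by 2.18 to 3.58 times and the 3 DKO libraries by 3.01 to 12.6 times. The small p-values of DKO against WT on that day thus rest on libraries that lie close together. MEF libraries of days 4 and 8 stood apart from their own group in WT library 1 of day 4, WT library 2 of day 8 and DKO library 3 of day 8. A gene was called when its adjusted p-value in edgeR's quasi-likelihood test was under 0.05 and its fold change was at least 1.5; fold changes are given as log2 values with their standard error.

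The first comparison followed WT cells through differentiation. In preadipocytes 5 of the 45 enzymes rose and 3 fell by day 3, where 11.1% and 13.6% of all genes tested were called higher and lower. By day 6, 34 rose and 2 fell (25.6% and 27.5% of all genes), and by day 9, 39 rose and 2 fell (25.8% and 27%). WT MEFs showed 8 enzymes that rose and 5 that fell on day 4 (14.8% and 18.4% of all genes), 14 and 3 on day 8 (12.7% and 16.9%) and 38 and 1 on day 12 (12.5% and 13.8%). These comparisons share their day 0 libraries and are not independent of each other. The medium also changed with the day, so time and medium cannot be told apart. The median log2 fold change of the 45 enzymes was 1.73 on preadipocyte day 6, 1.70 on preadipocyte day 9 and 1.14 on MEF day 12, against 0.01, -0.01 and -0.07 over all genes. In a culture, more cells of a type and more RNA per cell cannot be told apart. The summed level of 10 adipocyte markers rose with the enzymes from a range of 181 to 445 CPM on day 0 to one of 31571 to 32984 CPM on day 9 in WT preadipocytes and from a range of 994 to 1199 CPM to one of 21372 to 21859 CPM on day 12 in WT MEFs, and all 10 markers were called higher in both.

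**Figure D1:**
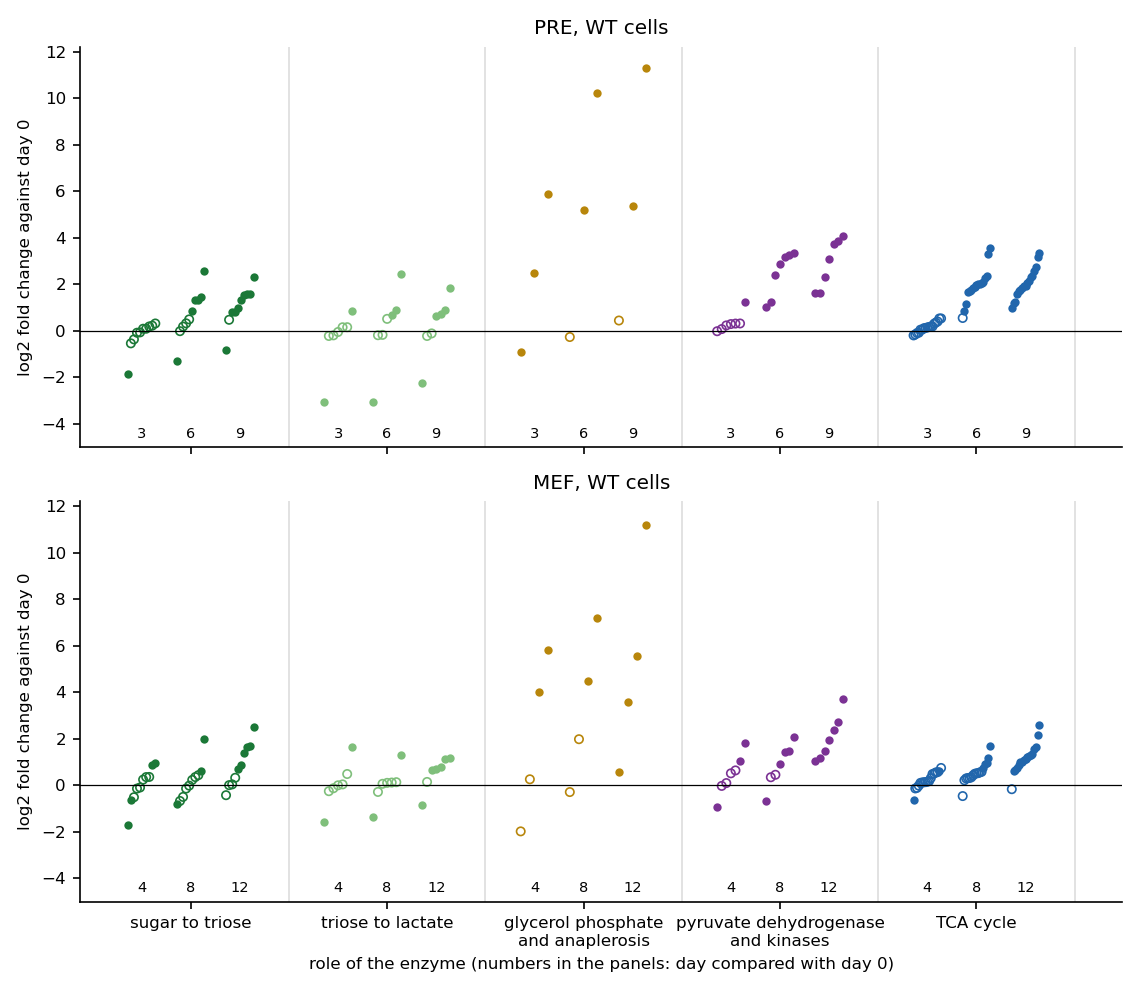
Log2 fold change against day 0 of each enzyme in WT preadipocytes (top) and WT MEFs (bottom), grouped by role, with the day compared written under each column of points. Filled points were called and open points were not; preadipocyte Pck1 is left out because it has no counts on day 0. The pyruvate dehydrogenase and TCA cycle columns sit almost wholly above 0 on the last days, while the 2 glycolytic columns spread to both sides of it.

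The largest fold changes over time belonged to the enzymes around glycerol phosphate and oxaloacetate. Gpd1, the cytosolic glycerol phosphate dehydrogenase, averaged 1.10 CPM in WT preadipocytes on day 0, 65.8 on day 3, 1313 on day 6 and 2780.2 on day 9, a log2 fold change of 11.28 ± 0.81 by day 9 (adjusted p = 8.01e-07). In WT MEFs it averaged 1.12 CPM on day 0 and reached 2808, 2808 and 2787 CPM in the 3 libraries of day 12. Pcx, pyruvate carboxylase, which refills the cycle with oxaloacetate, stood at 33.6, 39.7 and 45.2 CPM in WT preadipocytes on day 0 and at 163, 250.5 and 244 CPM on day 3, so that every day 3 library lay above every day 0 library. Its log2 fold change was 2.48 ± 0.18 on day 3 (adjusted p = 2.13e-06), the smallest p of the enzymes called higher on that day, and 5.36 ± 0.20 on day 9. WT MEFs took Pcx from 25.6, 22.3 and 28.2 CPM on day 0 to 612, 479.9 and 635 CPM on day 8 and 1307, 1259 and 1241 CPM on day 12. Those groups do not overlap, and the log2 fold changes were 4.49 ± 0.22 (adjusted p = 1.54e-07) and 5.57 ± 0.23 (adjusted p = 9.6e-08). Pck1, the cytosolic phosphoenolpyruvate carboxykinase of glyceroneogenesis, had 0 counts in all 3 WT preadipocyte libraries of day 0 and averaged 13.6 CPM on day 6 and 24.1 CPM on day 9, at least 103.5-fold and 183.9-fold higher when 3 counts per library are taken as the floor. The mitochondrial glycerol phosphate dehydrogenase Gpd2 moved otherwise, with a fall on preadipocyte day 3 (-0.89 ± 0.08) and a rise on MEF day 12 (0.59 ± 0.11).

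All 7 genes of the pyruvate dehydrogenase group rose in WT preadipocytes by day 6 and day 9 and in WT MEFs by day 12, with medians of 2.86, 3.08 and 1.96. Pdhb, the beta subunit of the decarboxylating component, stood at 46.5, 44.4 and 46.5 CPM in WT preadipocytes on day 0 and at 614, 613 and 627 CPM on day 9. These libraries do not overlap, and the difference of 3.75 ± 0.12 (adjusted p = 8.73e-10) had the smallest p of the enzymes called higher on day 9. Pdk4, a kinase that switches the complex off, averaged 12.5 ± 5.89 CPM (SD, n = 3) on day 0 and 212 ± 12.5 CPM on day 9 in preadipocytes, a log2 fold change of 4.08 ± 0.35. Pdk2, a second kinase of the complex, rose by 3.86 in preadipocytes and by 1.96 in MEFs on the last day. Pdk1, known as a target of the hypoxia-inducible factor, fell before it rose in WT MEFs, from 37.8, 32.6 and 36.3 CPM on day 0 to 21.9, 17.3 and 16.6 CPM on day 4 and then to 81.4, 76.8 and 73.5 CPM on day 12. The day 4 libraries all lie below and the day 12 libraries all above those of day 0, by -0.94 ± 0.10 (adjusted p = 1.48e-05) on the log2 scale and 1.04 ± 0.10 (adjusted p = 1.01e-05).

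Of the 17 TCA cycle enzymes, 16 rose in WT preadipocytes by day 6 and all 17 by day 9, with medians of 1.99 and 1.94. In WT MEFs 16 rose by day 12, with a median of 1.14, and Idh2, the NADP-linked mitochondrial isocitrate dehydrogenase, did not pass (-0.17 ± 0.11, adjusted p = 0.245). Mdh1, the cytosolic malate dehydrogenase, stood at 108, 101 and 104 CPM in WT preadipocytes on day 0 and 946, 1153 and 952 CPM on day 6, with no overlap and a difference of 3.31 ± 0.12 (adjusted p = 2.07e-09). Idh3a, a subunit of the NAD-linked isocitrate dehydrogenase, averaged 61.2 CPM on day 0 and 706 CPM on day 6, and Cs, the citrate synthase that opens the cycle, averaged 215 and 1028 CPM. On preadipocyte day 6, where their fold changes were 3.55 ± 0.14 and 2.28 ± 0.10, both had reached levels close to those of day 9 (622 and 1061 CPM).

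The glycolytic enzymes were less uniform. Among the 10 enzymes from sugar to triose, 5 rose and 1 fell in WT preadipocytes by day 6, 8 rose and 1 fell by day 9, and 6 rose in WT MEFs by day 12. Among the 7 from triose to lactate, 3, 4 and 5 rose and 1 fell in each of these comparisons. Hexokinase, which traps glucose in the cell, changed its main isoenzyme. Hk1 stood at 166, 186 and 155 CPM on day 0 and 70.0, 72.7 and 60.8 CPM on day 6 in WT preadipocytes, with a day 6 difference of -1.29 ± 0.14 (adjusted p = 5.96e-06), while Hk2 went from 78.5, 84.1 and 57.7 to 154, 206 and 180.2 CPM, with one of 1.32 ± 0.25 (adjusted p = 0.000729). In WT MEFs Hk1 stood at 87.9, 77.9 and 86.5 CPM on day 0 and 44.5, 56.3 and 44.2 CPM on day 8, all below day 0, with a log2 fold change of -0.81 ± 0.11 (adjusted p = 8.74e-05). Pkm, pyruvate kinase, and Eno1, the common enolase, were not called on any day in preadipocytes, with log2 fold changes of -0.22 ± 0.10 and -0.11 ± 0.13 on day 9.

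Eno3, the enolase of muscle, was the enzyme with the deepest fall. It stood at 31.4, 24.6 and 44.9 CPM in WT preadipocytes on day 0, 3.44, 3.16 and 5.33 CPM on day 3, 4.25, 4.39 and 3.19 CPM on day 6 and 7.79, 6.83 and 6.71 CPM on day 9. Every later library lay below every day 0 library, and on the log2 scale the differences from day 0 were -3.06 ± 0.25 (adjusted p = 5.74e-06), -3.06 ± 0.25 (adjusted p = 5.58e-07) and -2.24 ± 0.24 (adjusted p = 5.22e-06). WT MEFs had 13.5, 9.85 and 15.4 CPM on day 0 and 7.98, 7.23 and 7.52 CPM on day 12, which is -0.85 ± 0.18 (adjusted p = 0.00249) without overlap. The summed level of 8 skeletal muscle markers fell in the same preadipocyte libraries. It went from 99.4 to 143 CPM on day 0 to 1.46 to 3.95 CPM on day 6. On day 0, 5 of the 8 had no counts (Ckm, Myf5, Myh3, Myod1 and Myog). Ckm, Myf5, Myod1 and Myog had none on day 6 either. All 3 tested markers were called lower on day 6, and their part in the Eno3 result was not tested. The lactate dehydrogenase subunit of heart, Ldhb, went the other way in WT MEFs, from 28.5, 24.5 and 30.1 CPM on day 0 to 88.7, 84.7 and 84.4 CPM on day 4, and the rise of 1.63 ± 0.08 (adjusted p = 7.01e-08) had the smallest p of the enzymes called higher on that day.

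Per kilobase of annotated exon, joined over all transcripts of a gene, the order of the enzymes also changed. In WT preadipocytes on day 0 the highest values in CPM divided by exon length in kilobases (RPKM) were those of Pkm (515 ± 19.7), Pgk1 (424 ± 42.4) and Aldoa (369 ± 18.1), 3 glycolytic enzymes. On day 9 Aldoa (1095 ± 42.8) and Gpd1 (939 ± 33.3) led, followed by Pgk1 (797 ± 27.0), and Pkm stood at 443 ± 13.2. In WT MEFs of day 12 Gpd1 was the highest, at 946 ± 4.17 RPKM, with Aldoa at 588 ± 14.4. Reads of Pgk1, Eno1, Pkm and Pdhb were divided between near-identical loci in part by the counting, as their counts were fractional in all 48 libraries, so their levels are less certain.

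The second comparison set DKO against WT cells on each day. In preadipocytes no enzyme was called on day 0 (44 tested) or day 3, 21 were higher and none lower in DKO cells on day 6, and none was called on day 9. In MEFs none was called on day 0, day 4 (44 tested) or day 8, and 10 were higher and none lower on day 12. The shares of all genes called higher and lower were 0.0727% and 0.145% on preadipocyte day 0, 0.165% and 0.172% on day 3, 5.03% and 6.53% on day 6, and 0.469% and 0.776% on day 9. In MEFs they were 0.0383% and 0.0638% on day 0, 0.0194% and 0.0711% on day 4, 0.0132% and 0.0463% on day 8, and 3.92% and 4.05% on day 12. The median log2 fold change of the tested enzymes was -0.06, 0.37, 0.58 and 0.41 on the preadipocyte days and -0.02, 0.22, 0.26 and 0.43 on the MEF days, against medians between -0.01 and 0.01 over all genes. Of the 45 enzymes on preadipocyte day 6, 43 were above 0, and the exceptions were Hk1 and Eno3, of which Eno3 was above 0 with limma-voom and in a fit over all 24 libraries.

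The count of 21 became 14 when libraries were scaled by their size only and 32 without WT library 2, and it was 16 without WT library 1, WT library 3 or DKO library 3. The MEF count of 10 became 3 when all 24 MEF libraries shared 1 estimate of the spread, and 6 without DKO library 2 or with scaling by library size. Without the fold threshold 38 enzymes were higher on preadipocyte day 6, against 11.6% of all genes, and 40 on MEF day 12, against 17.3%.

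**Figure D2:**
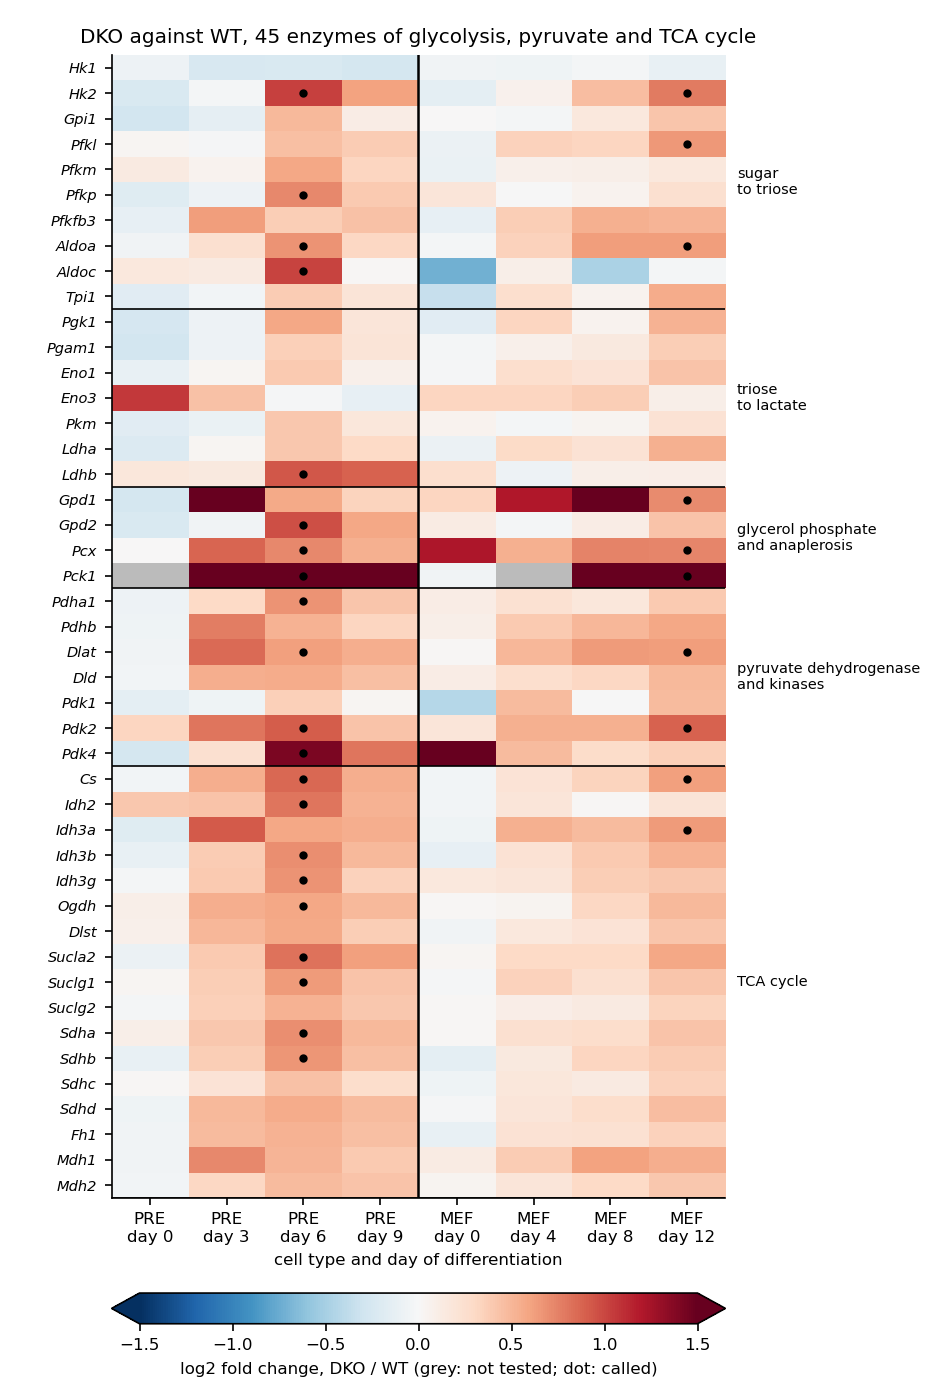
Log2 fold change of DKO against WT for each of the 45 enzymes (rows, grouped by role) on each day of preadipocytes and MEFs (columns), with red above and blue below 0, grey where a gene was not tested and a dot where it was called. The 21 dots of preadipocyte day 6 and the 10 of MEF day 12 all lie on red cells, and the columns of day 0 hold no dot.

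From sugar to triose, 4 of 10 enzymes were higher in DKO preadipocytes on day 6, with a median of 0.53. Hk2 (mm10, chr6:82725025-82774454, minus strand), the hexokinase of insulin-responsive tissues, stood at 154, 206 and 180.2 CPM in the WT libraries and at 341, 377 and 411 CPM in the DKO libraries. The lowest DKO library was above the highest WT library, and the log2 fold change of 1.03 ± 0.12 (adjusted p = 0.00333) had the smallest p of the 45 enzymes and was called under all 14 alternatives. Pfkp, the platelet form of phosphofructokinase, the committed step of glycolysis, stood at 92.7, 112 and 92.8 CPM in WT and 162, 161 and 179 CPM in DKO cells, also without overlap (0.72 ± 0.10, adjusted p = 0.00431). Aldoa, the main aldolase, stood at 2290.4, 3238 and 2533 CPM against 4045, 4743 and 4339 CPM (0.67 ± 0.15, adjusted p = 0.0165), a call that was lost without WT library 1, WT library 3 or DKO library 3 and with scaling by library size. The minor aldolase Aldoc was called at 1.01 from levels of 5.11 and 10.6 CPM. Hk1 stood at 70.0, 72.7 and 60.8 CPM in WT and 60.7, 65.2 and 52.4 CPM in DKO cells, which overlap (-0.23 ± 0.10, adjusted p = 0.136).

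On MEF day 12, 3 of these 10 enzymes were higher in DKO cells, with a median of 0.46. Hk2 stood at 87.3, 87.1 and 85.0 CPM in WT and 135, 181 and 138 CPM in DKO MEFs (0.78 ± 0.12, adjusted p = 0.00462), and Aldoa at 1759, 1677 and 1703 CPM in WT and 2526, 3019 and 2489 CPM in DKO MEFs (0.62 ± 0.07, adjusted p = 1.55e-05). For both enzymes all DKO libraries were above all WT libraries, and DKO library 2 was the highest. Of the phosphofructokinases it was the liver form Pfkl that was called in MEFs (0.65 ± 0.07, adjusted p = 8.01e-05), while Pfkp stood at 57.1, 48.6 and 48.1 CPM in WT and 57.9, 70.7 and 54.9 CPM in DKO cells, which overlap (0.24 ± 0.11, adjusted p = 0.132).

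From triose to lactate only Ldhb of 7 enzymes was called on preadipocyte day 6, where the median was 0.40. Ldhb stood at 136, 187 and 149 CPM in WT and 275, 305 and 339 CPM in DKO libraries (0.93 ± 0.13, adjusted p = 0.00457). Its partner Ldha, the muscle subunit, stood at 1502, 1973 and 1537 CPM against 2136, 2599 and 2062 CPM (0.40 ± 0.14, adjusted p = 0.0741). The DKO libraries of both subunits lie above the WT libraries, and only the difference of Ldhb passed. Pkm stood at 2055, 2534 and 2149.5 CPM in WT and 2929, 3389.9 and 2856 CPM in DKO cells, a difference with an adjusted p of 0.046 that is below 1.5-fold (0.41 ± 0.12). None of the 7 was called on MEF day 12, where the median was 0.37, Ldha was at 0.54 ± 0.05 (adjusted p = 3.78e-07), Pkm at 0.22 ± 0.04 (adjusted p = 0.00117) and Ldhb at 0.10 ± 0.05 (adjusted p = 0.138).

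**Figure D3:**
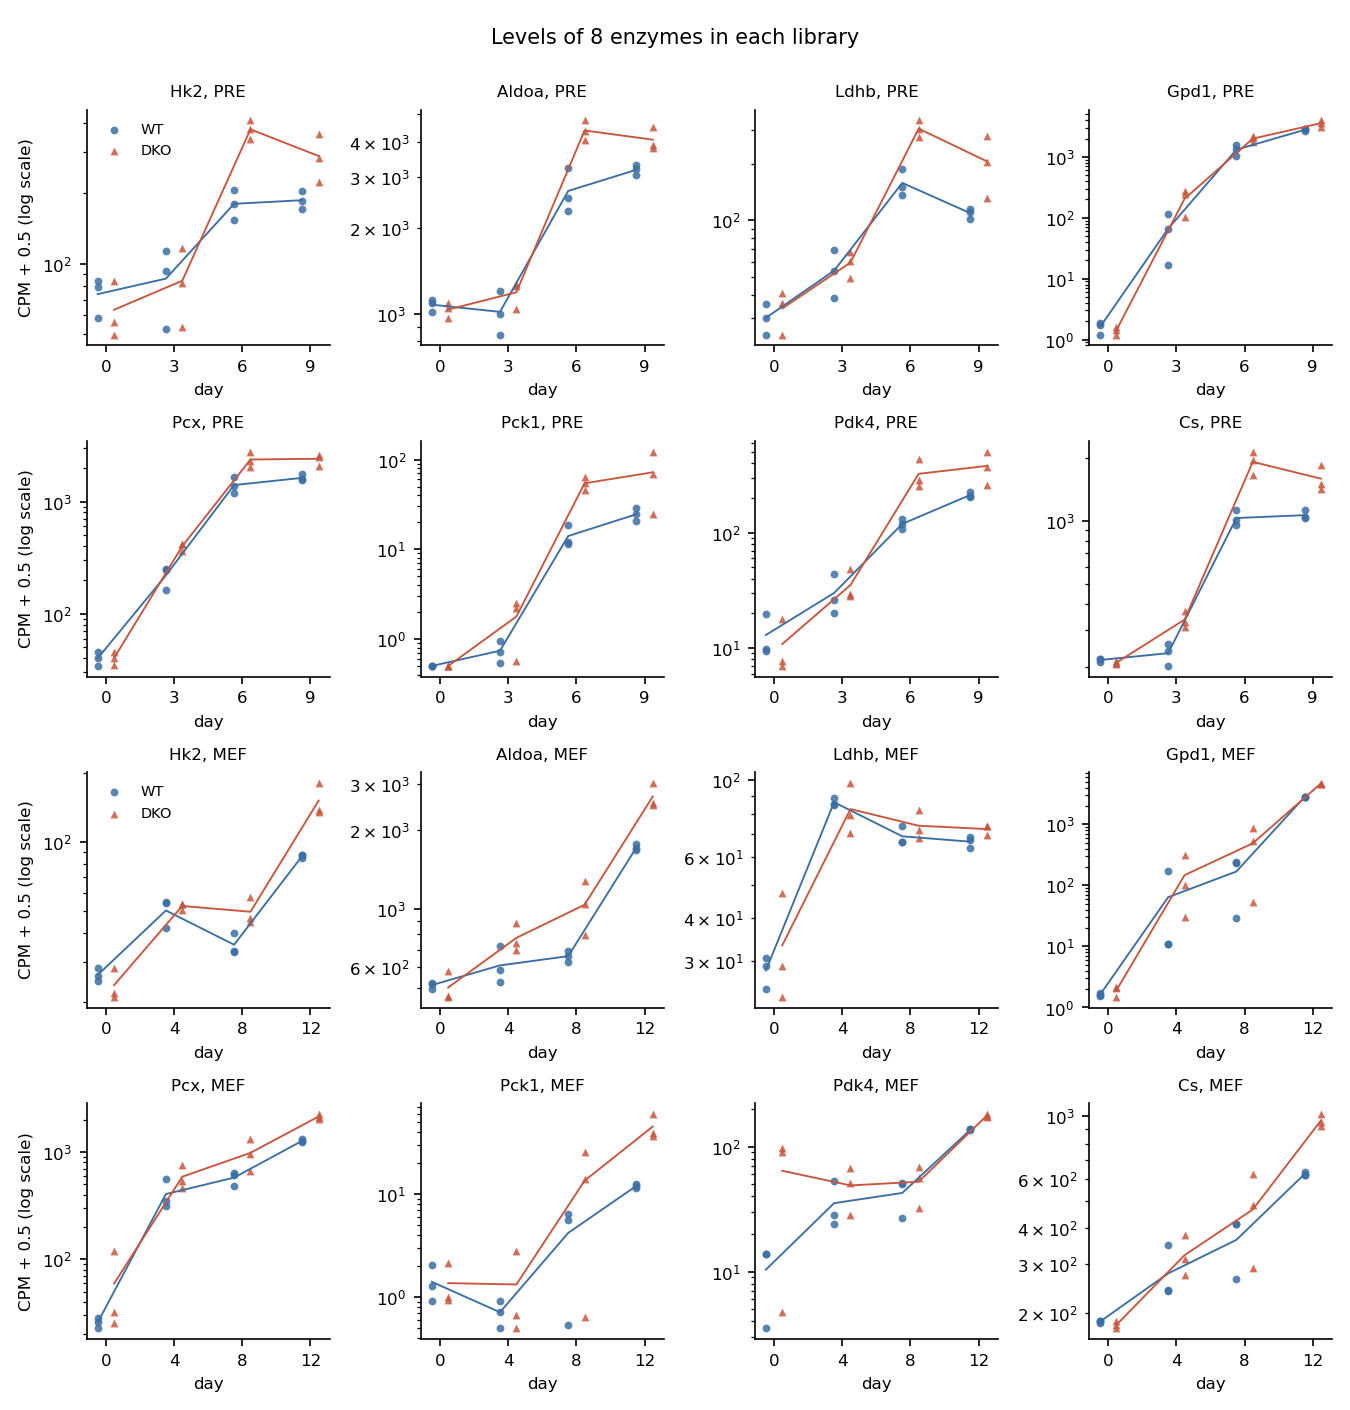
Level of 8 enzymes in each library, as CPM + 0.5 on a log scale, by day in preadipocytes (upper 2 rows) and MEFs (lower 2 rows), with WT as circles and DKO as triangles. On preadipocyte day 6 the DKO triangles lie above all WT circles for all 8 enzymes, and on day 0 the genotypes overlap for all 8; lines join the group means.

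Of the 4 enzymes around glycerol phosphate and oxaloacetate, 3 were higher in DKO cells in each cell type, with medians of 0.84 on preadipocyte day 6 and 0.72 on MEF day 12. Pck1 (chr2:173153048-173159273, plus strand) had the largest fold change of the 45 enzymes, with 11.0, 18.0 and 11.6 CPM in WT and 53.8, 44.9 and 63.0 CPM in DKO preadipocytes of day 6 (1.96 ± 0.22, adjusted p = 0.00395). On MEF day 12 it stood at 11.1, 11.6 and 11.97 CPM in WT and 36.3, 59.5 and 38.8 CPM in DKO libraries (1.93 ± 0.23, adjusted p = 0.00219). In both cell types the lowest DKO library had more than the highest WT library. Pcx was higher in both as well, at 1192, 1643 and 1379.9 against 2048, 2794 and 2285 CPM in preadipocytes (0.72 ± 0.15, adjusted p = 0.0152) and 1307, 1259 and 1241 against 2043, 2251 and 2112 CPM in MEFs (0.73 ± 0.05, adjusted p = 1.51e-08).

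The 2 glycerol phosphate dehydrogenases, which together pass electrons from cytosolic NADH to the respiratory chain, were called in different cell types. Gpd2 was called in preadipocytes (40.5, 41.3 and 45.001 against 74.4, 76.6 and 102 CPM, 0.96 ± 0.13, adjusted p = 0.00454) and stood at 0.42 ± 0.06 in MEFs. Gpd1 stood at 1023, 1565 and 1352 CPM in WT and 1734, 2230.3 and 2015 CPM in DKO preadipocytes (0.57 ± 0.16, adjusted p = 0.042), below 1.5-fold. In MEFs of day 12 Gpd1 stood at 2808, 2808 and 2787 CPM in WT and 4603, 4628 and 4781 CPM in DKO libraries. The groups do not overlap, and this difference of 0.71 ± 0.04 (adjusted p = 7.79e-09) had the smallest p of the enzymes called on that day. Whether the effect on either enzyme differs between the cell types was not tested.

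In the pyruvate dehydrogenase group 4 of 7 genes were higher in DKO preadipocytes on day 6, with a median of 0.62, and 2 of 7 in DKO MEFs on day 12, with a median of 0.48. Pdha1, the alpha subunit of the complex and its phosphorylated part, stood at 507, 547 and 502 CPM in WT and 751, 876 and 913 CPM in DKO preadipocytes (0.67 ± 0.10, adjusted p = 0.00595). Dlat, the acetyl-transferring core, was called in both cell types, at 0.62 ± 0.12 (adjusted p = 0.0111) and 0.63 ± 0.04 (adjusted p = 3.72e-08). Of the 3 kinases that inactivate the complex, Pdk2 and Pdk4 were also higher in DKO preadipocytes. Pdk2 stood at 84.5, 114 and 97.5 CPM in WT and 165, 189 and 217 CPM in DKO preadipocytes (0.91 ± 0.13, adjusted p = 0.00505), and its difference in MEFs was 0.89 ± 0.06 (adjusted p = 5.31e-08). Pdk4 stood at 108, 130.3 and 117 CPM in WT and 284, 252 and 432 CPM in DKO preadipocytes (1.41 ± 0.21, adjusted p = 0.00662), with DKO library 3 far above the other two. In MEFs of day 12 Pdha1 (0.39 ± 0.04, adjusted p = 1.99e-06) and Pdk4 (0.35 ± 0.04, adjusted p = 4.88e-06) stayed below 1.5-fold.

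All 17 TCA cycle enzymes had log2 fold changes between 0.44 and 0.86 on preadipocyte day 6, and 9 were called, with a median of 0.59. Cs had the largest of them, at 949, 1125 and 1009 CPM in WT and 1642, 1942 and 2134 CPM in DKO libraries (0.86 ± 0.13, adjusted p = 0.00519). Also called were Sucla2 (0.81) and Suclg1 (0.64) of succinyl-CoA ligase, Idh2 (0.80), Idh3b (0.70) and Idh3g (0.68) of the isocitrate dehydrogenases, and Sdha (0.70) of succinate dehydrogenase. Sdhb, the iron-sulfur subunit of succinate dehydrogenase, stood at 156, 202 and 163 CPM in WT and 250.1, 297 and 297 CPM in DKO libraries (0.66 ± 0.12, adjusted p = 0.00869). Ogdh, the first component of the oxoglutarate dehydrogenase complex, stood at 516, 621 and 617 CPM in WT and 727, 972 and 1000.5 CPM in DKO libraries (0.59 ± 0.14, adjusted p = 0.0229), just past the fold threshold, and kept its call under 6 of 14 alternatives. Of the enzymes not called, Idh3a stood at 649.7, 762 and 706 CPM in WT and 929, 1152 and 1159.6 CPM in DKO libraries (0.58 ± 0.12, adjusted p = 0.0133), just short of 1.5-fold. Mdh2, the mitochondrial malate dehydrogenase, stood at 452, 624 and 524 CPM in WT and 652, 862 and 761 CPM in DKO libraries (0.47 ± 0.14, adjusted p = 0.046). The lowest DKO library was above the highest WT library for all 17, and the share of all genes for which this holds was not counted.

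In MEFs of day 12 the 17 log2 fold changes ran from 0.19 to 0.63 with a median of 0.42, and 2 enzymes were called. Idh3a stood at 320.0, 322 and 326 CPM in WT and 501, 509 and 517 CPM in DKO libraries (0.63 ± 0.04, adjusted p = 8.92e-09), and Cs at 632, 619.5 and 619 CPM in WT and 926, 1019 and 955 CPM in DKO libraries (0.61 ± 0.04, adjusted p = 4.91e-08). The groups do not overlap for either enzyme. Ogdh (0.49 ± 0.04, adjusted p = 4.2e-07), Sdhb (0.38 ± 0.04, adjusted p = 4.16e-06) and Mdh2 (0.40 ± 0.04, adjusted p = 1.02e-06) passed the p-value and not the fold threshold.

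On the remaining days no enzyme was called, and the values are given as such. At an unadjusted p under 0.05, edgeR had 22 enzymes higher in DKO cells on preadipocyte day 3 (7.42% of all genes were higher at this cut-off) and 35 on day 9 (14.2%), and none lower. It had 4 on preadipocyte day 0 (7.86% of all genes in either direction), and in MEFs 3 on day 0 (9.28%), 0 on day 4 (5.91%) and 4 on day 8 (8.57%), which are shares of the enzymes close to or below those of all genes. DESeq2 called 7 enzymes on preadipocyte day 3 and 4 on day 9, and limma-voom called none. Neither tool called any on preadipocyte day 0 or on MEF days 0, 4 and 8. The shares of all genes called by DESeq2 were not set beside its counts. On preadipocyte day 3 all 17 TCA cycle enzymes were above 0, with a median of 0.41, while the enzymes from sugar to triose had a median of -0.02 and those from triose to lactate 0.03. Pcx stood at 163, 250.5 and 244 CPM in WT and 360.4, 421 and 417 CPM in DKO cells on that day (0.88 ± 0.18, adjusted p = 0.124), and Gpd1 at 16.2, 115 and 66.0 and 101, 269.7 and 243 CPM (1.65 ± 0.71, adjusted p = 0.432). The Gpd1 libraries overlap, and those of Pcx do not.

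On preadipocyte day 9, 43 of 45 enzymes were above 0, and DKO library 2 lay nearest to the WT libraries for several of them. Pck1 stood at 20.2, 24.003 and 28.0 CPM in WT and 69.1, 23.9 and 122 CPM in DKO libraries (1.54 ± 0.54, adjusted p = 0.131), Pdk4 at 207, 203 and 226 and 372, 259 and 503 CPM (0.80 ± 0.23, adjusted p = 0.0893), and Ldhb at 114, 101 and 109 and 204, 131 and 279.5 CPM (0.89 ± 0.25, adjusted p = 0.092). In each case the second DKO library is the lowest, and for Pck1 it lies among the WT libraries. Without it 11 enzymes were called on day 9, in place of none, and the share of all genes called in that fit was not set beside this count. Idh3a (0.55 ± 0.10, adjusted p = 0.0494) and Pdha1 (0.41 ± 0.07, adjusted p = 0.0436) passed the p-value and not the fold threshold with all libraries.

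Before differentiation 1 wide difference was seen in MEFs. Pdk4 stood at 13.3, 3.02 and 13.4 CPM in WT and 4.23, 96.9 and 90.1 CPM in DKO MEFs of day 0. This gene, like the others named on days without a call, was chosen after its values were seen. The first DKO library lies among the WT libraries and the other two far above them (2.69 ± 1.10, adjusted p = 0.533). On MEF day 8 the libraries of a group lay far apart, and Gpd1 stood at 233, 28.5 and 243 CPM in WT and 870.4, 542 and 53.4 CPM in DKO MEFs. The second WT and the third DKO library are the lowest, and the genotypes overlap. The summed adipocyte markers of these libraries ranged from 4453 to 11129 CPM in WT and 5178 to 19669 CPM in DKO cells, and their part in the result was not tested.

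The change of the DKO effect since day 0 was tested through the genotype by day term. On day 6 of the preadipocytes it was called for 22 enzymes, all toward a higher level in DKO cells, against 3.49% of all genes in either direction, and on MEF day 12 for 13 enzymes, again all higher, against 1.42%. None was called on preadipocyte days 3 and 9 (0.0125% and 0.0555% of all genes) or on MEF days 4 and 8 (0% and 0%). At an unadjusted p under 0.05 there were 19 and 32 enzymes on these preadipocyte days, against 6.23% and 15.8% of all genes, and 3 and 2 on these MEF days, against 7.21% and 5.25%, which is near the background. DESeq2 called 4, 7, 0 and 0 in the 4 tests, and limma-voom called none. Its shares of all genes were not set beside the DESeq2 counts. The preadipocyte count of 22 fell to 0 without WT library 3 of day 6, 3 without WT library 1 of day 6 and 4 without WT library 1 of day 0 or DKO library 3 of day 6, and it was 7 to 14 without WT library 2 or 3 or any DKO library of day 0 or DKO library 2 of day 6. The MEF count of 13 became 0 when all 24 libraries shared 1 fit and 7 or 8 without WT library 1 or 3 of day 0 or any WT library of day 12.

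Shares of isoenzymes within a library do not depend on its scaling. They do depend on the exonic length, which joins the exons of all annotated transcripts of a gene (8532 bases for Hk1, 5969 for Hk2). The lengths of the transcripts present in these cells were not measured. Hk2 made up 38.2% ± 2.96 (SD, n = 3) of the summed RPKM of Hk1 and Hk2 in WT preadipocytes on day 0 and 79.0% ± 2.72 on day 6. In DKO preadipocytes of day 6 its share was 88.9, 89.2 and 91.8% in the 3 libraries, against 75.9, 80.2 and 80.9% in the WT libraries, with no overlap. In MEFs of day 12 the share was 65.2% ± 0.750 in WT and 77.4% ± 1.94 in DKO cells. Ldhb made up 16.5% ± 0.489 of Ldha and Ldhb together in WT and 22.3% ± 3.06 in DKO preadipocytes of day 6. On MEF day 12 the order was the other way, with 15.0% ± 0.409 in WT and 11.5% ± 0.399 in DKO cells. The libraries of the genotypes do not overlap in either case.

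Pfkl made up 34.9% ± 1.91 of the 3 phosphofructokinase subunits in WT MEFs on day 0, 58.4% ± 0.774 on day 12 and 66.1% ± 2.45 in DKO MEFs of day 12. On preadipocyte day 6 its share was 74.6% ± 1.59 in WT and 72.3% ± 1.91 in DKO cells, and these libraries overlap. Among the kinases Pdk1, Pdk2 and Pdk4, the share of Pdk4 was 39.6% ± 0.959 in WT and 50.7% ± 5.60 in DKO preadipocytes of day 6, and 51.8% ± 0.743 and 44.5% ± 1.61 on MEF day 12. The Pdk4 share was thus higher in DKO preadipocytes and lower in DKO MEFs. Apart from Pfkl on preadipocyte day 6, none of these shares overlaps between the genotypes on these days. A two-sided exact permutation test of 3 against 3 libraries cannot go below p = 0.1, so the shares are given as a description.

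**Figure D4:**
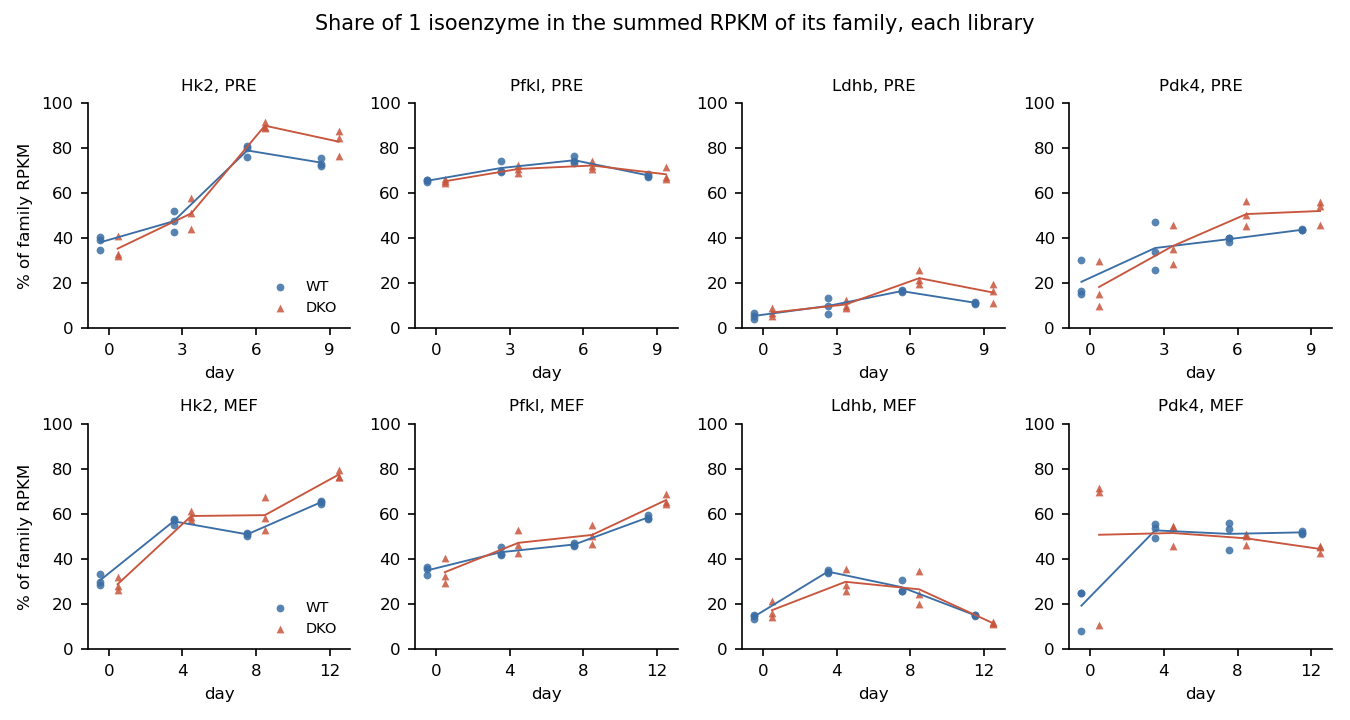
Share of Hk2, Pfkl, Ldhb and Pdk4 in the summed RPKM of its isoenzyme family, in percent, by day in preadipocytes (top) and MEFs (bottom), with 1 point per library and a line through the group means. The Hk2 share of DKO preadipocytes on day 6 lies at 90.0% on average, above the 79.0% of WT, and the Ldhb share differs in opposite directions in the 2 cell types on the days named in the text.

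Other genes of the pathway were taken from a list of 49 that holds the remaining isoenzymes, regulators, carriers and malic enzymes. Of the 39 tested on preadipocyte day 6, 12 were higher and 1 lower in DKO cells, with a median of 0.38. Among those with the smallest p were Ldhd, the dehydrogenase of D-lactate (1.34 ± 0.17, adjusted p = 0.00389), Pdp2, a phosphatase that reactivates pyruvate dehydrogenase (0.81 ± 0.11), Dhtkd1, a relative of Ogdh (0.66 ± 0.10), and Slc2a4, the insulin-responsive glucose transporter (1.01 ± 0.15). The gene called lower was Pdp1, the other phosphatase of that complex (-0.64 ± 0.14, adjusted p = 0.0148), which was singled out after its value was seen. On MEF day 12, 10 of 40 were higher and none lower, with a median of 0.36. Slc2a4 (0.82 ± 0.04, adjusted p = 7.39e-10), the mitochondrial pyruvate carrier subunit Mpc1 (0.65 ± 0.04), Pdhx of the pyruvate dehydrogenase core (0.72 ± 0.04), Pfkfb1 (0.85 ± 0.06) and the cytosolic malic enzyme Me1 (0.71 ± 0.05) had the smallest p. Me1 was also the one gene of the list called on preadipocyte day 3 (0.82 ± 0.07, adjusted p = 0.00706), and none was called on preadipocyte day 9, where the median was 0.21.

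Many glycolytic enzymes are also known as targets of the hypoxia-inducible factor, so 20 further genes induced by low oxygen were read beside them. On preadipocyte day 6, 5 of 19 tested were higher in DKO cells, 1 was lower and the median was 0.28, and on MEF day 12, 7 of 19 were higher, none was lower and the median was 0.40. Those of preadipocyte day 6, named after their values were seen, were Ero1l (1.2996 ± 0.17), Egln3 (0.82 ± 0.15), Vegfa (0.68 ± 0.10), Mxi1 (0.66 ± 0.10) and Bnip3 (0.63 ± 0.16), with Plod2 lower (-0.96 ± 0.17). In WT cells the list had medians of 0.55 on preadipocyte day 6 and 0.46 on MEF day 12 against day 0.

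The RefSeq promoter table (GRCm38.p6), which holds 42 of the 45 enzymes, was searched for a form of the hypoxia response element core. This was ACGTG on either strand in the 250 bases before the start of each gene, and other forms were not searched. ACGTG was found for 16 of 42 enzymes (38.1%) and for 18.5% of all gene symbols in the table. By role it was found for 4 of 7 enzymes from triose to lactate (57.1%) and 4 of 15 of the TCA cycle (26.7%), and for 8 of 21 enzymes called on preadipocyte day 6 and 8 of 21 not called (38.1% each). CACGTG, which contains it, was found for 6 of 42 enzymes (14.3%) and 6.86% of all symbols, AAGGTCA, bound by estrogen-related receptors, for 1 (2.38%) and 4.7%, and GCGCATGCG, the core bound by NRF1, for 2 (4.76%) and 1.64%. A match is a description of the letters and not of a bound site. All symbols in the table include genes that were not tested in these cells, and the share among tested genes was not counted. Shown are the matches nearest to the start for Hk2, the enzyme with the smallest p on preadipocyte day 6, and for Pgk1 and Pgam1, enzymes between triose and lactate that were not called, with ACGTG or its reverse complement CACGT in capitals.
Hk2, chr6:82774477-82774531 (minus strand): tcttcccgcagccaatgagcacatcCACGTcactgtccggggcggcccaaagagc
Pgk1, chrX:106186925-106186998 (plus strand): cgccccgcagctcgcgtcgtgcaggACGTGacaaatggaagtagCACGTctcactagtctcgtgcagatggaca
Pgam1, chr19:41911732-41911786 (plus strand): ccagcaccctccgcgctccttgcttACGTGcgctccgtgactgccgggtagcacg
The match begins 52 bases before the start in Hk2, 150 and 131 bases before it in Pgk1 and 114 bases before it in Pgam1, none of them within an annotated exon. Pgk1 stood at 0.57 ± 0.14 (adjusted p = 0.0241) and Pgam1 at 0.36 ± 0.12 (adjusted p = 0.0708) on preadipocyte day 6, and neither was called.

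Markers of the cells in the cultures also differed between the genotypes. On preadipocyte day 6 the summed adipocyte markers were 25151 to 30538 CPM in WT and 33664 to 42013 CPM in DKO libraries, without overlap. All 10 had a log2 fold change above 0, 2 were called and the median was 0.49. On MEF day 12 the sums were 21372 to 21859 and 32786 to 35221 CPM, 8 of 10 were called and the median was 0.69. The 6 brown adipocyte markers had medians of 1.296 and 1.01, with 5 and 4 called higher and 0 and 1 lower. The 7 preadipocyte and fibroblast markers had medians of -0.89 on preadipocyte day 6, with 3 lower and 1 higher, and -0.40 on MEF day 12, with 2 lower. Of 6 proliferation genes 5 were lower on preadipocyte day 6 (median -1.04) and 1 on MEF day 12 (median -0.47). Of 6 neural markers 4 were tested on each of these days, and 2 and 3 were lower. Of the endothelial markers none was called on preadipocyte day 6 and 2 of 3 tested were lower on MEF day 12. The part of these cells in the results on the enzymes was not tested.

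Immune cell markers were present in the differentiated cultures. In WT preadipocytes the summed level of 6 markers rose from 118 to 439 CPM on day 0 to 4813 to 8158 CPM on day 6, and in DKO preadipocytes it was 1797 to 3733 CPM on day 6. All 6 were below 0 in DKO against WT cells on day 6, with a median of -1.02, 1 called lower and none at 0 counts. On day 9 the ranges were 2496 to 5357 and 1205 to 2438 CPM with a median of -1.20. WT MEFs held 6347 to 8417 CPM of these markers before differentiation and 4004 to 4054 CPM on day 12, against 2529.6 to 2898 CPM in DKO MEFs of day 12 (median -0.38, 1 called lower). Whether these cells contributed to the levels of the 45 enzymes was not tested.

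**Figure D5:**
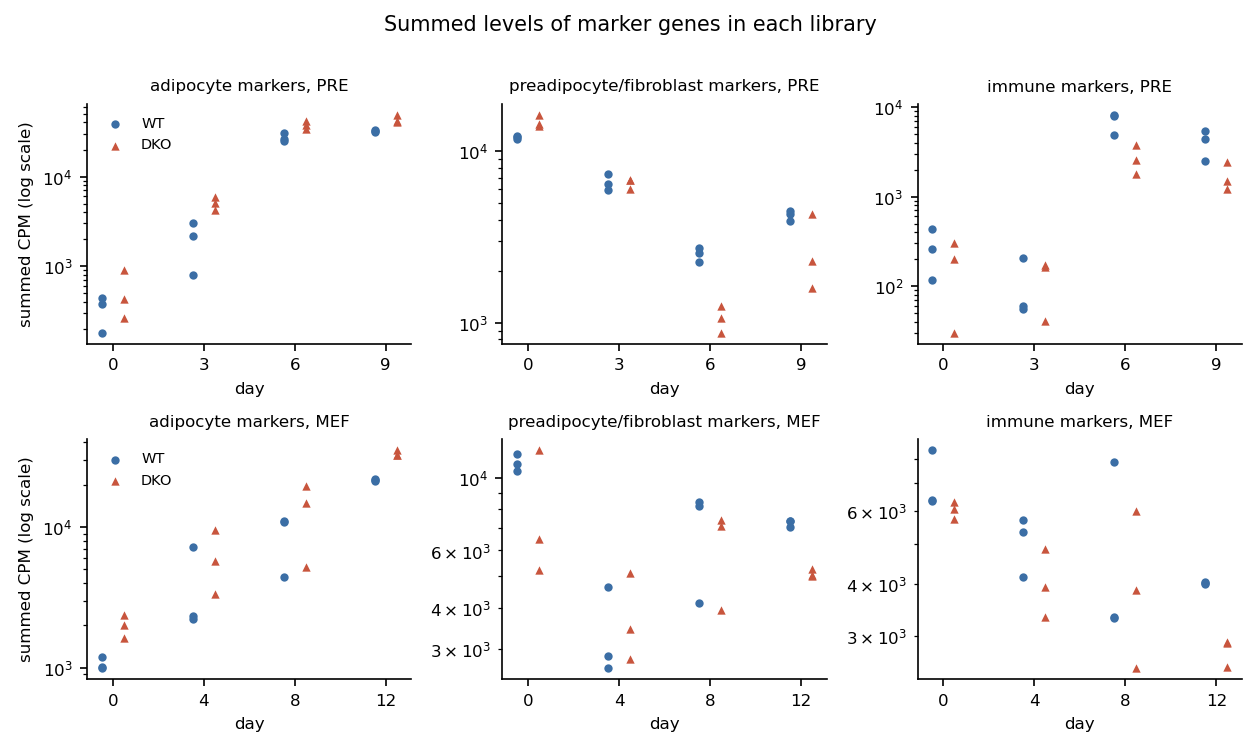
Summed CPM of adipocyte, preadipocyte or fibroblast, and immune markers in each library on a log scale, by day in preadipocytes (top) and MEFs (bottom), with WT as circles and DKO as triangles. On preadipocyte day 6 the DKO triangles lie above the WT circles for adipocyte markers and below them for the other 2 lists.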

How the data were processed

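RNA from 48 mouse libraries was read in 50-base reads. The authors deposited expected counts per gene from RSEM 1.3.0 after alignment with STAR 2.7.0f to mm10, with adapters cut by cutadapt 1.18 and reads called by bcl2fastq 2.17, per the submitters' processing notes. Expected counts need not be whole, because RSEM divides reads shared between near-identical loci (5.49 to 7.90% of values were not whole), and they were rounded here. Counts of Gpi1, Tpi1, Pgk1, Pgam1, Eno1, Pkm, Ldha, Ldhb, Pdhb and Suclg2 were fractional in all libraries of at least 1 cell type, so these levels are less certain. Aldoa has 2 identifiers, and the one that holds nearly all of its counts was used.

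Genes kept by filterByExpr were scaled by TMM and tested with edgeR 4.0.16 in R 4.3.3 (quasi-likelihood, robust), and p-values were adjusted by Benjamini-Hochberg over all genes tested. A gene was called at an adjusted p under 0.05 and a fold of at least 1.5. DKO was compared with WT within each day (6 libraries), WT days with day 0 over 12 libraries, and the interaction over 12. CPM were scaled by TMM over the 24 libraries of a cell type. RPKM use the exonic length in GENCODE M21, joined over all transcripts of a gene. The procedure was checked on simulated counts. Alternatives were DESeq2 1.42.0, limma-voom (limma 3.58.1), library size only, other low-count filters, no fold threshold, 1 fit over 24 libraries, a replicate block and leaving out each library.

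The enzymes, marker lists and other gene lists were chosen with earlier results of these data known. Called enzymes were named, the enzyme with the smallest p per comparison and direction was given in every library, and 16 enzymes chosen by role were described on preadipocyte day 6 and MEF day 12 whether called or not. Of the other pathway genes at most 5 called ones per comparison were named, and 1 of them is not reported here. Libraries summed to 18962483 to 36006696 counts, so counting error is small for all but the lowest enzymes.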

Additional observations from a re-analysis of the deposited data

Results flagged for a closer look

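The effect of the double knockout differed between days by the interaction test of edgeR for 22 enzymes in preadipocytes. That count ran from 0 to 26 when 1 library was left out. Values are the log2 fold change of DKO against WT on day 6 minus that on day 0. From sugar to triose the difference was called for Hk2 (1.29), Gpi1 (0.79), Pfkp (0.94) and Aldoa (0.76). From triose to lactate the difference was called for Pgk1 (0.87) and Pkm (0.62). Around glycerol phosphate the difference was called for Gpd2 (1.22). In the pyruvate dehydrogenase group the difference was called for Pdha1 (0.78), Pdhb (0.61), Dlat (0.71) and Dld (0.63). In the TCA cycle the difference was called for Cs (0.93), Idh3a (0.79), Idh3b (0.85), Idh3g (0.75), Sucla2 (0.93), Suclg1 (0.64), Suclg2 (0.59), Sdha (0.64), Sdhb (0.81), Sdhd (0.65) and Fh1 (0.60). The largest was that of Hk2, 1.29 ± 0.29 (adjusted p = 0.0359), with 3 libraries in each of the 4 groups. DKO libraries of Hk2 lay above all WT libraries on day 6 and overlapped them on day 0.

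In MEFs the effect on day 12 differed from that on day 0 for 13 enzymes, again all upward. From sugar to triose the difference was called for Hk2 (0.97), Pfkfb3 (0.67), Aldoa (0.69) and Tpi1 (0.94). From triose to lactate the difference was called for Pgk1 (0.72) and Ldha (0.67). In the pyruvate dehydrogenase group the difference was called for Dlat (0.65), Pdk1 (0.93) and Pdk2 (0.74). In the TCA cycle the difference was called for Cs (0.68), Idh3a (0.73), Idh3b (0.67) and Sucla2 (0.59). Hk2 stood at 0.97 ± 0.18 (adjusted p = 0.0223) and Pdk1, the hypoxia-inducible kinase of pyruvate dehydrogenase, at 0.93 ± 0.11 (adjusted p = 0.00396). None of the 13 was called when all 24 MEF libraries shared 1 fit.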

How the results depend on the processing

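Values here are numbers of the 45 enzymes called, and the shares of all genes called under the alternatives are not set beside them. Over all comparisons and alternatives, 257 such counts stayed within 1.5 times the reported count and 47 did not, and the cause was not tested unless the alternative's own construction gives it. For DKO against WT on preadipocyte day 6 (21), the count was 21 with DESeq2, 19 with limma-voom, 14 with library size only, 26 with 1 fit over 24 libraries, 38 without the fold threshold and 16 to 32 without 1 library. On MEF day 12 (10) it was 40 without the fold threshold, 6 with library size only, 3 with 1 fit over 24 libraries, 10 with DESeq2 and 6 to 13 without 1 library. On preadipocyte day 3 (0) it was 7 with DESeq2, 3 with low counts kept and 8 with 1 fit over 24 libraries. On preadipocyte day 9 (0) it was 2 without the fold threshold, 4 with DESeq2, 1 without a filter, 3 with 1 fit over 24 libraries and 0 to 11 without 1 library, 11 being without DKO library 2. On MEF day 0 (0) it was 0 to 1, 1 being without DKO library 1. Among WT comparisons with day 0, dropping the fold threshold gave 15 on preadipocyte day 3, 23 on MEF day 4 and 32 on MEF day 8. Without 1 library these gave 7 to 10 on preadipocyte day 3, 35 to 38 on day 6 and 41 on day 9, and 11 to 16, 17 to 23 and 37 to 39 on MEF days 4, 8 and 12. For the interaction in preadipocytes, day 6 (22) gave 14 with library size only, 14 without a filter and 0 to 26 without 1 library, day 3 (0) gave 4 with DESeq2 and 2 with 1 fit, and day 9 (0) gave 7 with DESeq2, 1 without a filter, 1 with 1 fit and 0 to 8 without 1 library. On MEF day 12 (13) it gave 23 without the fold threshold, 6 with library size only, 7 with limma-voom, 0 with 1 fit and 7 to 14 without 1 library. Where 1 library was left out, the lone pair of its group entered the same model.

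The labels do not say that a replicate number marks a shared source. Deviations of same-numbered WT and DKO libraries correlated at -0.211 to 0.412 on preadipocyte day 0, 0.0457 to 0.410 on day 3, -0.0766 to 0.0124 on day 6 and -0.0566 to 0.183 on day 9, and at -0.0460 to 0.0534 on MEF day 12, so that on none of these days was every pair over 0.1 and the numbers were not taken to pair the genotypes. With the replicate block, 20 enzymes were called on preadipocyte day 6, 10 on MEF day 12, 7 on preadipocyte day 3 and 7 by the interaction on preadipocyte day 6. Same-numbered preadipocyte libraries of 1 genotype correlated between days 6 and 9 at 0.0839 to 0.334 in WT and 0.239 to 0.327 in DKO cells, and between days 0 and 3 at 0.331 to 0.492 in DKO cells, so those days may not be independent.

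Of the values of single enzymes, 4097 kept direction and side of the threshold, 366 lost and 106 gained a call, and 14 changed sign, all of them uncalled. Without 1 library these were, on preadipocyte day 3, Hk2 (ranging from -0.3275 to 0.2285), Ldha (-0.0326 to 0.1128), Ldhb (-0.0370 to 0.3788) and Pdk4 (-0.0585 to 0.6350), on day 6 Eno3 (-0.2120 to 0.1171), and on MEF day 12 Aldoc (-0.0838 to 0.0388). Eno3 on preadipocyte day 6 also stood at 0.1219 with limma-voom and 0.0146 with 1 fit over 24 libraries. Library size alone moved the median of all genes to -0.11 in DKO against WT on preadipocyte day 6.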
